A study of Drosophila melanogaster with 5 samples.

Results

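The Polycomb and Trithorax group genes encode chromatin proteins that keep developmental genes silent or active as cells divide. Followed here were 34 of them, chosen by symbol for their place in a known complex, out of 17528 features in the table, 14819 of which are genes with a FlyBase identifier. By role, 8 belong with Polycomb repressive complex 2 (PRC2), 8 with Polycomb repressive complex 1 (PRC1), 4 are DNA-binding recruiters or their partner, 3 belong with the Polycomb deubiquitinase (PR-DUB) or other repressors, and 11 are Trithorax genes. All 34 were in the table, and 33 had a mean of at least 10 CPM (read counts per 1000000, after the authors' scaling between libraries) over the 5 libraries. The exception was Trl, which encodes GAGA factor.

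Polyadenylated RNA was sequenced from testes of males of the genotype hs-bam; bam[1]/bam[86] (the second allele is bamΔ86 in the study), about 100 pairs per time, with 1 library per time. These males carry 2 mutant alleles of bam, so that spermatogonia keep dividing, and a bam transgene behind a heat shock promoter. The heat shock was 30 min at 37 °C, given to pupae of the middle and late stages that otherwise lived at 25 °C, so that a pulse of Bam lets a wave of spermatogonia become spermatocytes. The groups were no heat shock (no HS) and 8, 16, 24 and 32 h post heat shock (PHS). Every group carried both the mutant alleles and the transgene. The promoter is not restricted to germ cells, and the testes also hold somatic cyst cells, muscle sheath and seminal vesicle. No heat-shocked testes without the transgene were analysed here, so the heat shock, the pulse of Bam and the age of the animals cannot be told apart.

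PRC2 methylates a lysine in a histone tail, and PRC1 recognises that mark, compacts chromatin and ubiquitylates a core histone. Recruiters bind the Polycomb response elements of target genes, and PR-DUB takes the ubiquitin off again. Trithorax proteins act the other way, as histone methyltransferases of the COMPASS family, as demethylases of the Polycomb mark, or as subunits of the Brahma nucleosome remodeller. In the fly testis, Polycomb is known for silencing spermatocyte genes in their precursors, and testis-specific TAFs (subunits of a transcription factor) move Polycomb protein to the nucleolus of spermatocytes.

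Reads on features numbered between 28766676 at 24 h and 10356663 in no HS, so that no HS was the shallowest library. It is also the baseline of every comparison with no HS, and those comparisons therefore share its counting and sample error. The bam transcript was at 64.7 CPM in no HS and at 128, 90.4, 74.2 and 60.5 CPM at 8, 16, 24 and 32 h PHS. The transgene and the mutant alleles were not separated in this count. The 13 genes of DNA replication summed to 2911, 2981, 2233, 1211 and 1009 CPM in the same order, and all 13 were past 1.5-fold lower at 32 h than in no HS, RnrS (-2.07) and Mcm7 (-1.68) most. The 15 spermatocyte markers summed to 216, 205, 163, 380 and 1099 CPM, at 32 h mostly from Rbp4 (400 CPM against 4.19 CPM in no HS) and fest (289 CPM against 0.292 CPM, or 3 reads, in no HS). Of the 10 with a mean of at least 10 CPM, 6 were past 1.5-fold higher at 32 h and 1, twe (-1.20), was lower, with a median of 0.86 (-0.25 at 24 h), while sa and can were under 1 CPM in every library. The 7 germ line markers summed to 1601, 1501, 1358, 1415 and 1263 CPM, with medians of -0.55 at 24 h and -0.44 at 32 h. They did not move together. At 32 h zpg (-1.33), tej (-0.86) and nos (-0.78) were past 1.5-fold lower, while AGO3 (0.33) and aub (0.26) were above no HS. At 24 h AGO3 (0.60, past 1.5-fold), vas (0.30) and aub (0.23) were above no HS and the rest below it. Marker sums for the muscle sheath lay between 1211 CPM at 24 h and 870 CPM in no HS (6 of 6 genes measured). At 32 h bt, a gene of chromosome 4, was at 0.86, and the other muscle genes lay between 0.19 (Mlc2) and 0.47 (Mhc). Sums for somatic cyst cells lay between 153 and 199 CPM (zfh1 at -0.81 at 32 h). Those for seminal vesicle and duct lay between 18.3 and 39.7 CPM, and those for fat body between 7.14 and 10.2 CPM. With 1 library per time no variation between animals or cultures can be estimated, so no test is given. In its place stand the change in log2(CPM + 1), the 95% interval that counting error alone allows for the log2 ratio of the CPM, and the share of all 6603 features of mean at least 10 CPM that moved as far.

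The medians of PRC2, PRC1 and the recruiters were below no HS from 24 h on, while that of the Trithorax genes was near 0. At 32 h PHS against no HS, the median change was -0.33 for PRC2, -0.25 for PRC1, -0.24 for the recruiters and -0.12 for PR-DUB and the other repressors. The Trithorax median was -0.03, and that of all features was -0.00, with quartiles of -0.22 and 0.18. At 24 h the medians were -0.35 for PRC2, -0.24 for PRC1, -0.23 for the recruiters, -0.02 for PR-DUB and others and -0.02 for Trithorax. The recruiter median is over 3 genes. Against 8 h PHS in place of no HS, the 24 h medians were -0.28 for PRC2, -0.086 for PRC1, 0.0012 for the recruiters, 0.045 for PR-DUB and others and -0.029 for Trithorax. At 8 h the 5 class medians lay between -0.07 and -0.01. At 16 h the Trithorax median stood at 0.20, against a range of -0.12 to 0.01 for the other 4 classes. The sizes are small, and a lower level in whole testes does not separate fewer cells of a type from less RNA per cell.

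**Figure D1:**
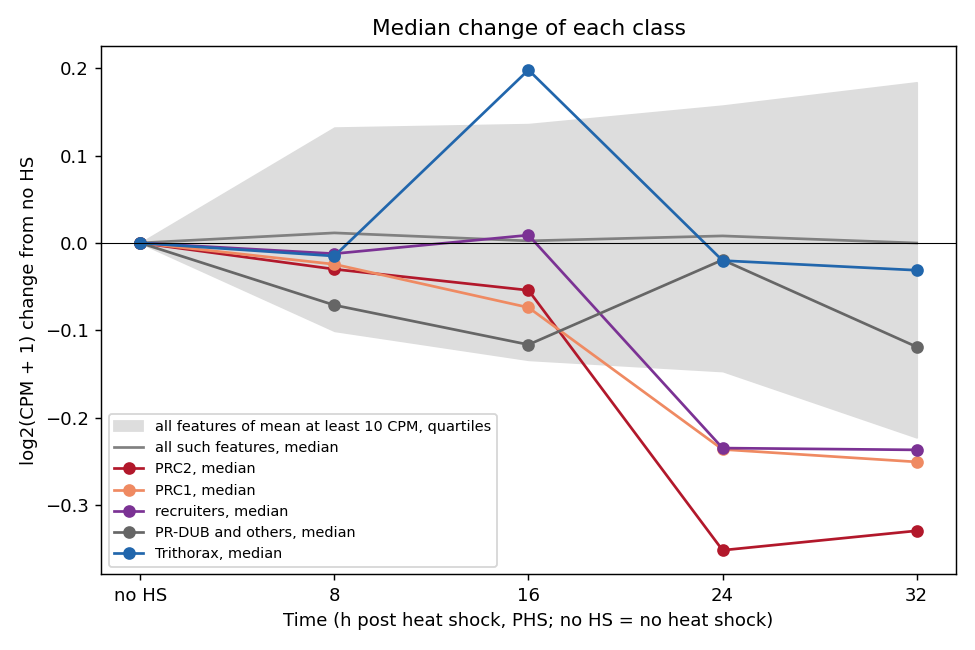
Median change in log2(CPM + 1) from no HS for each class of genes (coloured points, 1 library per time) at 8, 16, 24 and 32 h PHS, with the median (grey line) and quartiles (grey band) of the 6603 features of mean at least 10 CPM. PRC2, PRC1 and the recruiters lie below the lower quartile at 24 and 32 h PHS, and Trithorax lies above the upper quartile at 16 h PHS.

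Taking the 33 measured genes together, 20, 17, 25 and 26 were below no HS at 8, 16, 24 and 32 h PHS. The median over them was -0.02, -0.01, -0.17 and -0.22, and over all features it stayed between -0.00 and 0.01. Between neighbouring libraries the largest shared step was from 16 to 24 h: at 24 h PHS 27 of the 33 genes were lower than at 16 h PHS, with a median of -0.19, whereas 50.0% of all features were lower. That comparison does not use the no HS library. Of the 33 genes, 23 were in the longest quartile of exonic length. In that quartile the median change from no HS was 0.08 at 16 h and 0.02 at 24 h, with 65.7% and 54.0% of genes above no HS. In the shortest quartile the medians were -0.06 and -0.00. What part transcript length has in this step was not tested. The lowest of the 5 levels was in the 32 h library for 16 of the 34 genes, Trl among them, and in the 24 h library for 8. Over all features of mean at least 10 CPM, 32.1% were lowest at 32 h and 11.0% at 24 h.

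Few of these genes moved far. At 8 h PHS, 2 of 33 were past 1.5-fold higher than no HS (pho and Set1), beside 1.04% of all features, and 0 were past 1.5-fold lower, beside 0.575%. At 16 h, 0 were higher, beside 0.924% of features, and 0 were lower, beside 2.23%. At 24 h, pho and Set1 were again the 2 that were higher, beside 2.92%, and esc was the 1 that was lower, beside 4.6%. At 32 h, 0 were higher, beside 3.27%, and 1 (esc) was lower, beside 6.62%. The level of esc at 32 h was also past 2-fold lower, which held for 2.09% of features. Set against 8 h PHS in place of no HS, the 32 h library had 1 gene lower (esc), beside 7.71% of features, and 0 higher, beside 2.5%. The 24 h library had 2 lower than at 8 h (esc and Caf1-55), beside 4.42%, and 0 higher, beside 1.41%. Between 24 and 16 h PHS 0 were lower, beside 1.2%, and 0 were higher, beside 0.878%. Since 2 of 33 is 6.06% and 1 of 33 is 3.03%, the count was above the background for the genes that were higher at 8 and 24 h, and elsewhere it was below the background or within 1.5-fold of it.

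**Figure D2:**
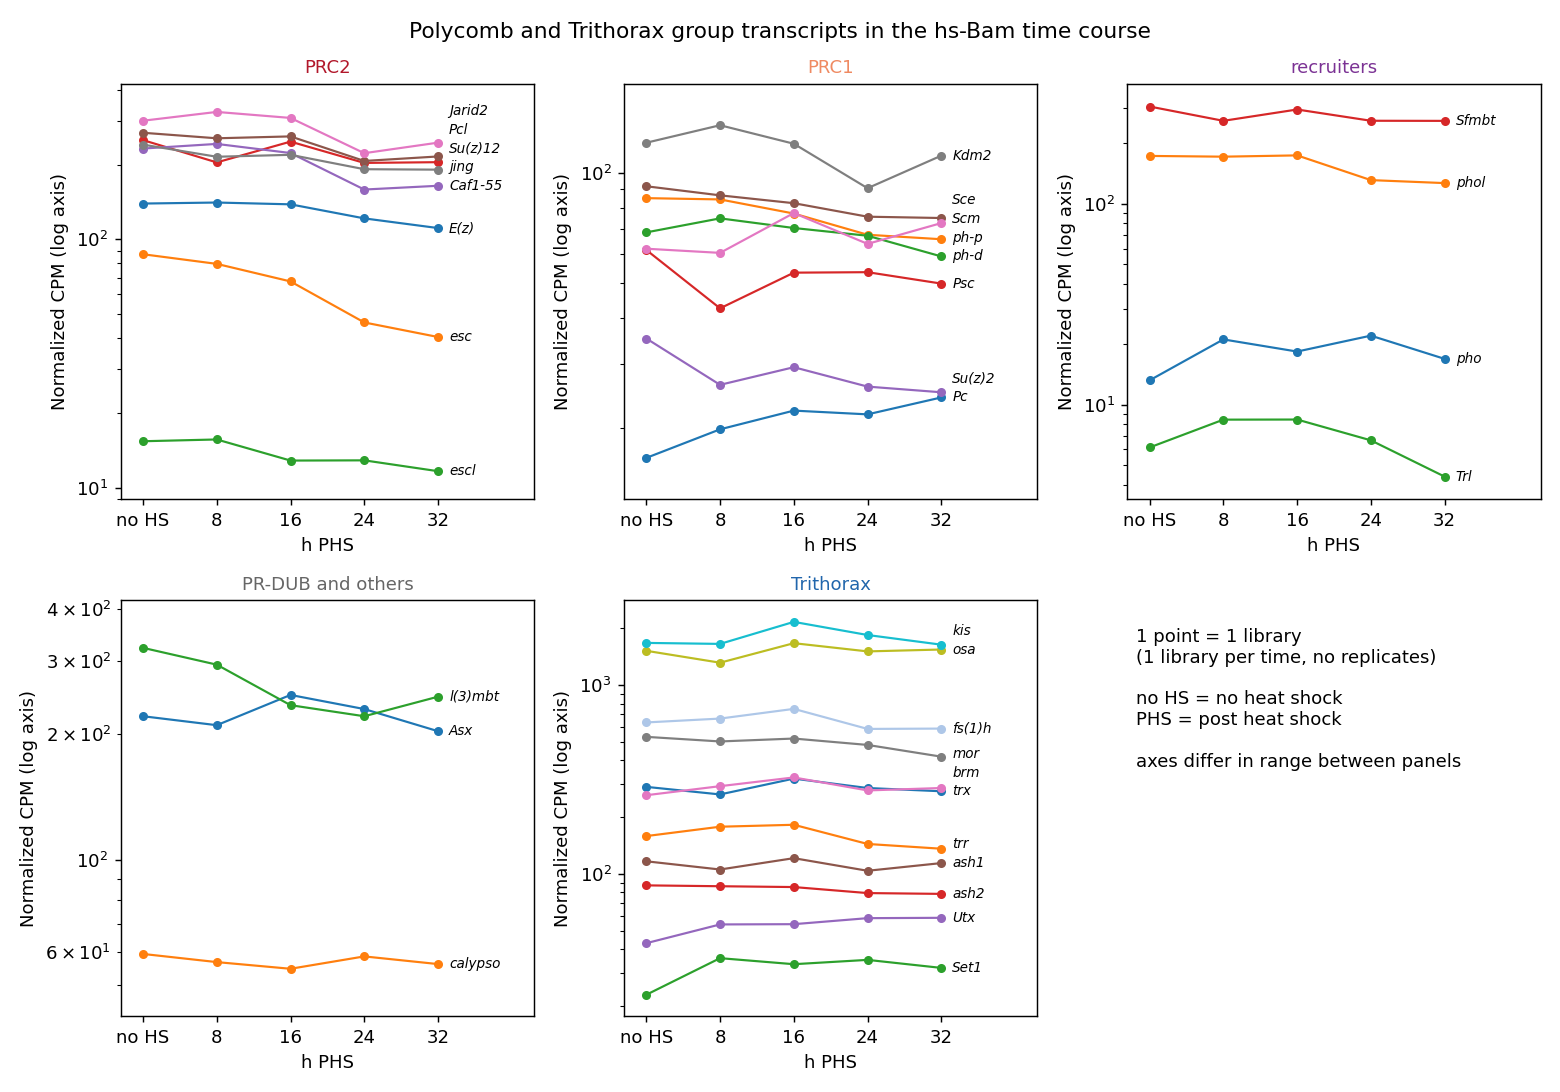
Normalized CPM (log axis, range differing between panels) of the 34 genes at no HS, 8, 16, 24 and 32 h PHS, by class, each point 1 library. The line of esc drops furthest among the PRC2 genes, to 40.4 CPM at 32 h PHS against 87.1 CPM in no HS, while the lines of the Trithorax genes kis and osa peak at 2168 and 1672 CPM at 16 h PHS.

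Within PRC2 all 8 genes were below no HS at both 24 and 32 h PHS, and their summed level was 1535, 1479, 1477, 1164 and 1184 CPM at no HS, 8, 16, 24 and 32 h PHS. Over all features, 48.7% were below no HS at 24 h and 50.0% at 32 h. The sum of the replication genes stepped down between the same 2 libraries, from 2233 CPM at 16 h to 1211 CPM at 24 h. Unlike the PRC2 sum, it had already fallen between 8 h (2981 CPM) and 16 h, and it fell again by 32 h (1009 CPM). The median of the germ line markers was below no HS at 24 and 32 h (-0.55 and -0.44), though AGO3 and aub were above it at both times. What part these changes have in the PRC2 result was not tested.

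The gene that moved furthest was esc (2L:11827204-11829405, minus strand, on the BDGP6.54 annotation), which encodes the WD-repeat subunit that binds the methylated histone tail and stimulates the enzyme. Its level was 87.1 CPM in no HS and 79.7, 67.7, 46.3 and 40.4 CPM at 8, 16, 24 and 32 h PHS. Each library was lower than the one before it. The changes at 8, 16, 24 and 32 h were -0.13, -0.36, -0.90 and -1.09. In the last library the interval was -1.24 to -0.97, and the level was 46.4% of that in no HS. Counted from the lowest, esc ranked 107 of 6603 features at 32 h. None of its exonic bases is shared with another annotated gene. Because every library counts esc and E(z) side by side, their ratio is free of the scaling between libraries. Of the reads of esc and E(z) together, esc made up 38.5, 36.1, 32.8, 27.6 and 26.7% at no HS, 8, 16, 24 and 32 h PHS. The 95% Clopper-Pearson interval was 25.3 to 28.2% in the 32 h library and 36.5 to 40.5% in no HS, without overlap. The pairing of esc with E(z) was not planned.

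Its paralog escl, which lies 161522 bp away on 2L and encodes a protein that can stand in for Esc, was at 15.4, 15.6, 12.9, 12.9 and 11.7 CPM. It was also lowest at 32 h PHS, with a change of -0.37, but from 158 reads in no HS, and the interval ran from -0.69 to -0.11. The share of esc in the reads of the pair was 85.0, 83.6, 84.0, 78.2 and 77.6% in order of time, with an interval of 75.2 to 79.9% in the last library and 82.7 to 87.1% in no HS. The share was smaller at the last 2 times, and the 2 transcripts are of similar exonic length (1704 and 1809 bp).

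E(z), the methyltransferase itself, was at 139, 141, 138, 122 and 111 CPM, level until 16 h and lower after that (change at 32 h -0.33, interval -0.42 to -0.23). Su(z)12, a core subunit needed for activity, was at 251, 204, 248, 203 and 205 CPM. Its 8 h value was as low as its late values, so its course over time was not a simple decline. Caf1-55, a histone-binding subunit that also serves other chromatin complexes, was at 232, 242, 223, 159 and 164 CPM. It was the PRC2 gene next to esc at 24 h, with a change of -0.55 (interval -0.62 to -0.48).

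The accessory subunits were also lower at the last 2 times. Pcl, which helps PRC2 to reach full methylation, was at 269, 255, 260, 207 and 216 CPM. Jarid2, a partner that guides PRC2 to chromatin, was at 301, 326, 308, 222 and 245 CPM, and jing, the fly counterpart of the cofactor AEBP2, at 241, 215, 219, 192 and 191 CPM. Each of these had its 2 lowest values at 24 and 32 h PHS, with changes at 32 h of -0.32, -0.29 and -0.33. Per kilobase of exon, esc and E(z) were at 23.7 and 41.7 CPM per kb at 32 h PHS, against 51.1 and 52.3 CPM per kb in no HS. Caf1-55 was the most abundant of the 8 on that scale in no HS, at 127 CPM per kb, and escl the least, at 8.50 CPM per kb.

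**Figure D3:**
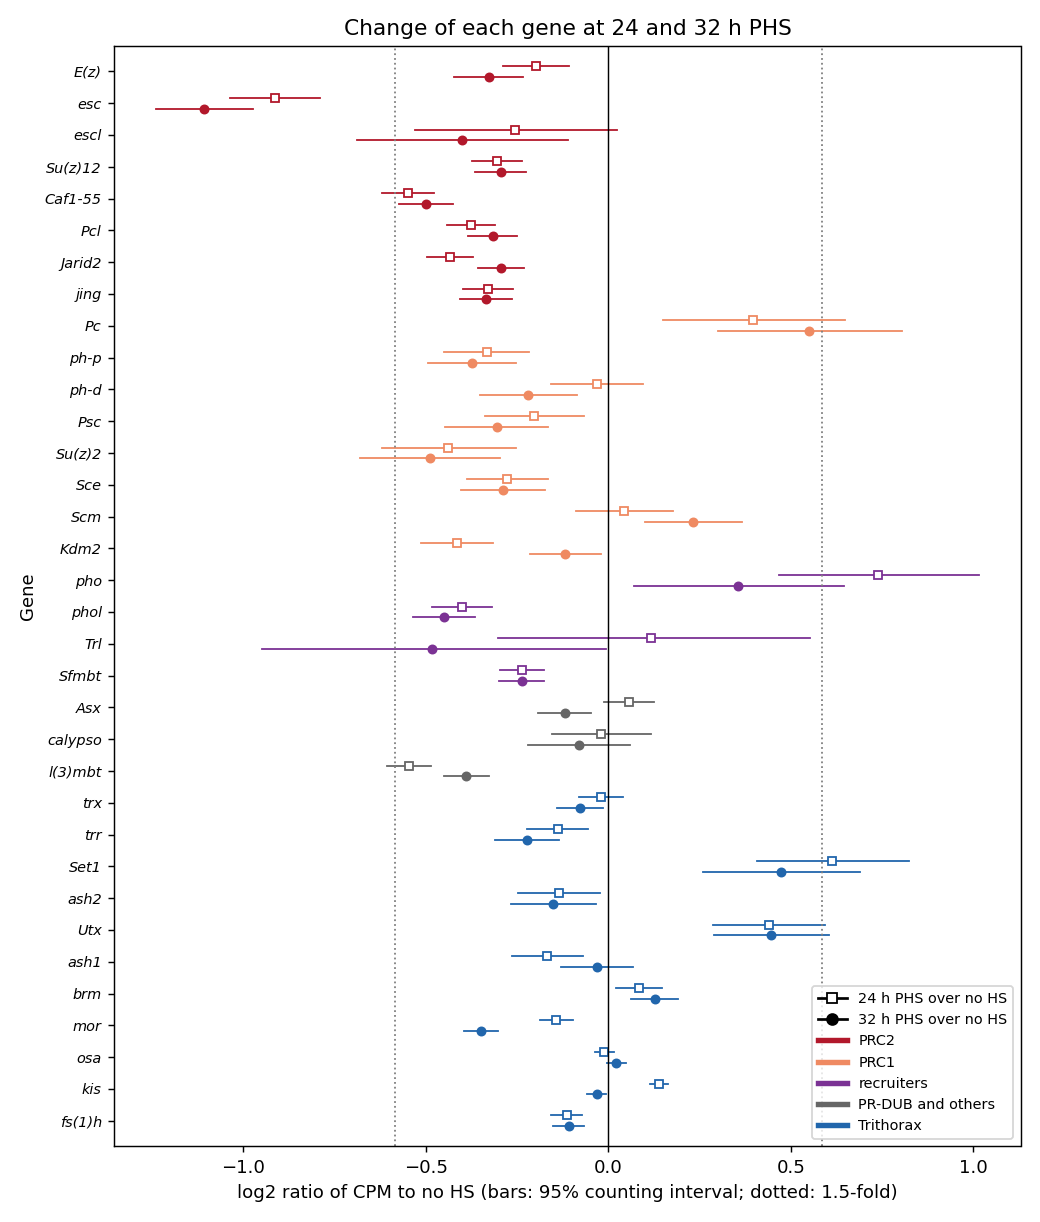
Log2 ratio of CPM to no HS for each of the 34 genes at 24 h (open squares) and 32 h PHS (filled circles), coloured by class, with bars for the 95% interval of counting error and dotted lines at 1.5-fold. All 8 PRC2 genes lie left of 0 at both times, only esc lies past the left line, and Pc, pho, Set1 and Utx lie to the right of the rest.

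PRC1 did not move as a block. Its summed level was 542, 530, 533, 466 and 483 CPM, and 6 of its 8 genes were below no HS at both 24 and 32 h PHS. Pc, the chromodomain subunit that reads the PRC2 mark and gave the group its name, was with Scm above no HS at 24 and 32 h. It was at 16.6 CPM in no HS and at 19.8, 22.3, 21.8 and 24.2 CPM at 8, 16, 24 and 32 h PHS. Every later library was above no HS, with a change at 32 h of 0.52 (interval 0.30 to 0.81), which is short of 1.5-fold on the log2(CPM + 1) scale and rests on 170 reads in no HS. Sce, the RING subunit that is the ubiquitin ligase, was at 91.8, 86.7, 82.5, 75.8 and 75.2 CPM, lower in each library than in the one before. Of these steps only that from 16 to 24 h had an interval without 0 (-0.21 to -0.03). From no HS to 32 h the change of Sce was -0.29 (interval -0.40 to -0.17). The share of Pc in the reads of Pc and Sce was accordingly 15.3, 18.6, 21.3, 22.3 and 24.4% in order of time, with an interval of 22.7 to 26.2% at 32 h PHS and 13.2 to 17.5% in no HS.

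The polyhomeotic genes, whose proteins polymerise PRC1 through a SAM domain, are a tandem pair on the X, 2924 bp apart on the same strand. ph-p was at 85.2, 84.5, 77.3, 67.6 and 65.7 CPM, and ph-d at 68.6, 75.0, 70.6, 67.2 and 59.0 CPM. Both were lowest at 32 h, with changes of -0.37 and -0.22. Their sequences are alike enough that reads mapping to both could be lost or misplaced, so the split between them is uncertain. By the deposited values ph-p held 55.4% of the reads of the pair in no HS and between 50.2 and 53.0% in the later libraries, and the interval of no HS (52.9 to 57.9%) overlaps those of 8, 16 and 32 h but not that of 24 h (48.6 to 51.7%).

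Psc and Su(z)2, neighbours on 2R that encode the alternative partners of Sce, were both lower at 8 h PHS than in no HS. Psc was at 61.4, 42.5, 53.2, 53.4 and 49.7 CPM and Su(z)2 at 35.1, 26.2, 29.3, 25.9 and 25.0 CPM. Psc was lowest at 8 h, with a change of -0.52 (interval -0.67 to -0.39), the most negative of the 33 genes at that time. Su(z)2 was below no HS in each later library (-0.41, -0.25, -0.42 and -0.47) and was lowest at 32 h. The share of Psc in the pair ranged from 61.8% at 8 h to 67.3% at 24 h, and the interval at 24 h (65.3 to 69.2%) overlaps that of no HS (60.5 to 66.6%).

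Scm, a SAM-domain protein that links PRC1 to PRC2 and the recruiters, was at 61.9, 60.3, 77.5, 63.8 and 72.8 CPM and was the other PRC1 gene above no HS at the end (change at 32 h 0.23, interval 0.10 to 0.37). Kdm2, a histone demethylase of the dRAF variant complex, was at 121, 135, 120, 90.7 and 111 CPM. It was lowest at 24 h, with a change of -0.41, and nearer to no HS at 32 h, with -0.12. The levels of Scm and Kdm2 rose and fell between times, which 1 library a time cannot separate from library error.

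**Figure D4:**
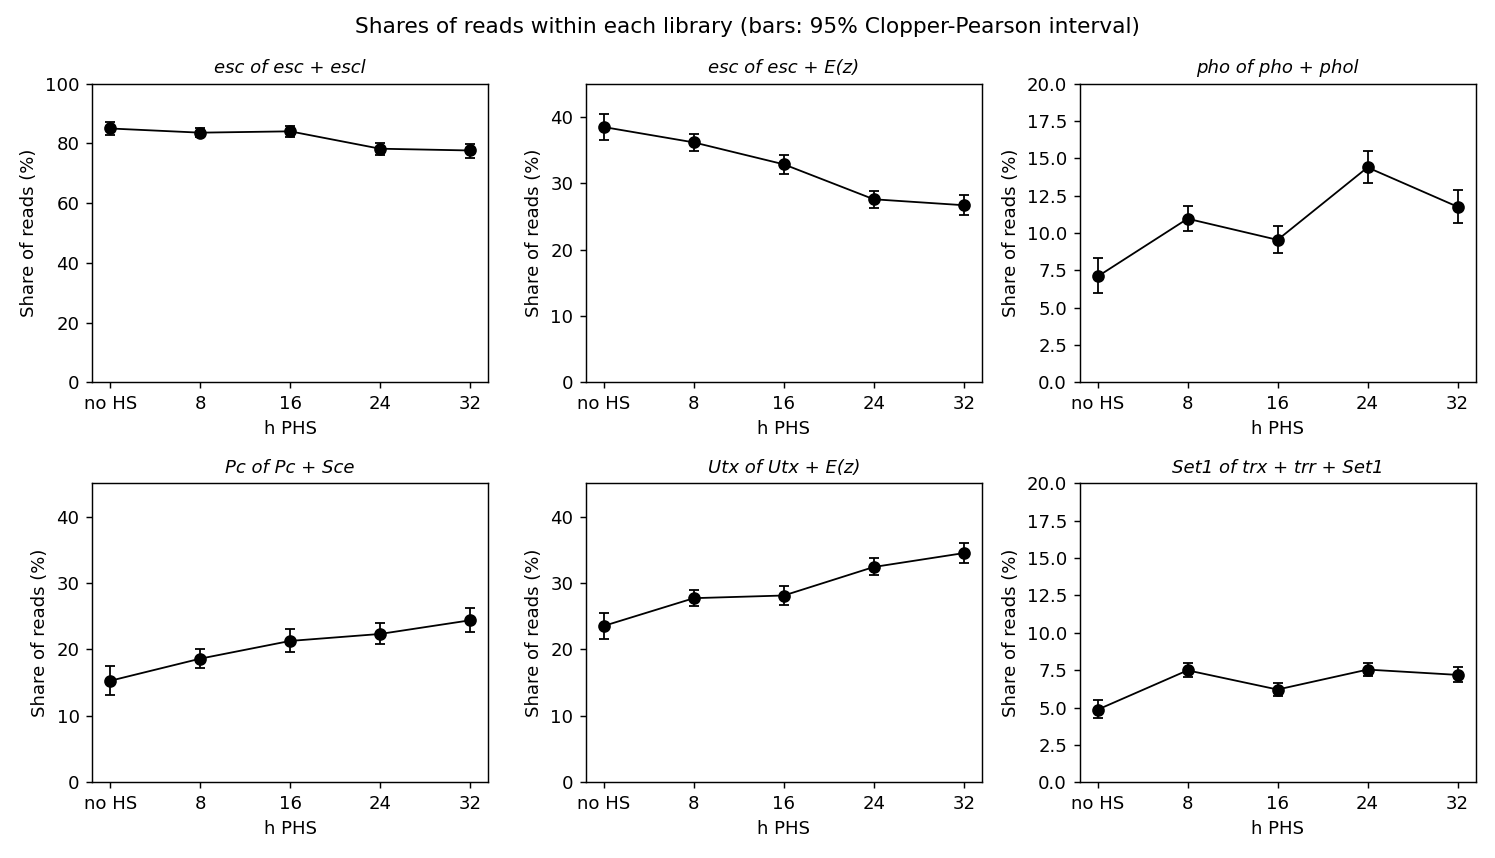
Share of reads (percent) taken by the first gene of each named set within each library, at no HS, 8, 16, 24 and 32 h PHS, with 95% Clopper-Pearson bars for counting error. The share of esc beside E(z) runs down to 26.7% at 32 h PHS, while those of Pc beside Sce and of Utx beside E(z) run up to 24.4% and 34.5%. Of the sets shown, only esc with escl and pho with phol were planned.

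Among the recruiters, the paralogs pho and phol, zinc-finger proteins that bind the same motif in Polycomb response elements, stood on opposite sides of no HS at 24 and 32 h. pho (chromosome 4:1172469-1181628, minus strand) was at 13.2 CPM in no HS and at 21.2, 18.4, 22.1 and 16.9 CPM at 8, 16, 24 and 32 h PHS. All 4 later libraries were above no HS, and the change was past 1.5-fold at 8 h (0.64, interval 0.40 to 0.96) and 24 h (0.70, interval 0.47 to 1.02) but not at 16 h (0.45) or 32 h (0.33). The no HS value rests on 136 reads. phol (3L) was at 173, 172, 174, 131 and 127 CPM, level for the first 3 libraries and lower in the last 2, with changes of -0.40 and -0.45. Against 8 h PHS both were lower at 32 h, with changes of -0.31 (interval -0.51 to -0.13) for pho and -0.43 for phol. The share of pho in the reads of the pair was 7.09, 11.0, 9.54, 14.4 and 11.8% in order of time, with an interval of 13.4 to 15.5% at 24 h PHS and 5.99 to 8.34% in no HS. Per kilobase of exon, pho was at 5.56 CPM per kb in no HS and phol at 51.2 CPM per kb.

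Sfmbt, the protein that joins Pho in the recruiter complex, was at 306, 259, 295, 260 and 259 CPM, with a change of -0.24 at 32 h. Annotated genes on the opposite strand cover 18.4% of its exonic bases, and the library kit does not mark strand, so reads from that part may be lost or misplaced. Trl was at 6.13, 8.44, 8.45, 6.65 and 4.39 CPM, highest at 8 and 16 h and lowest at 32 h. It is too low for the counts past a fold and for the medians, and 77.8% of its exonic bases lie in other annotated genes (CG42507 and Tsen34), so that its level is uncertain.

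The changes of pho and of Set1 had company on their chromosomes. These places were picked after the values were seen. Chromosome 4 held 48 annotated features of mean at least 10 CPM, 46 of them protein-coding genes and pho among these. Their median changes were 0.33, 0.38, 0.58 and 0.33 at 8, 16, 24 and 32 h PHS, and 48, 44, 47 and 38 of them were above no HS. At 24 h 24 of the 48 were past 1.5-fold higher, against 1.96% of the 6473 features placed elsewhere, whose median was 0.00. Within chromosome 4 pho ranked highest at 8 h, and it ranked 18, 18 and 25 of 48 at 16, 24 and 32 h. Set1 (3L:25107594-25115180, plus strand) lies in the centromere-proximal end of 3L. The 74 measured features in such ends of the 5 large chromosome arms, 70 of them protein-coding, had medians of 0.35, 0.26, 0.60 and 0.36, with 42 of 74 past 1.5-fold higher at 24 h. Set1 ranked 6, 13, 41 and 31 of those 74 at 8, 16, 24 and 32 h. Against 8 h PHS in place of no HS, the median was 0.20 at 24 h and -0.02 at 32 h on chromosome 4, 0.19 and 0.01 near the centromeres, and -0.0070 and -0.02 elsewhere. With protein-coding genes alone, chosen after the data were seen, the 24 h medians against no HS were 0.60 in both places. The part of this regional difference in the values of pho and Set1 was not tested.

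**Figure D5:**
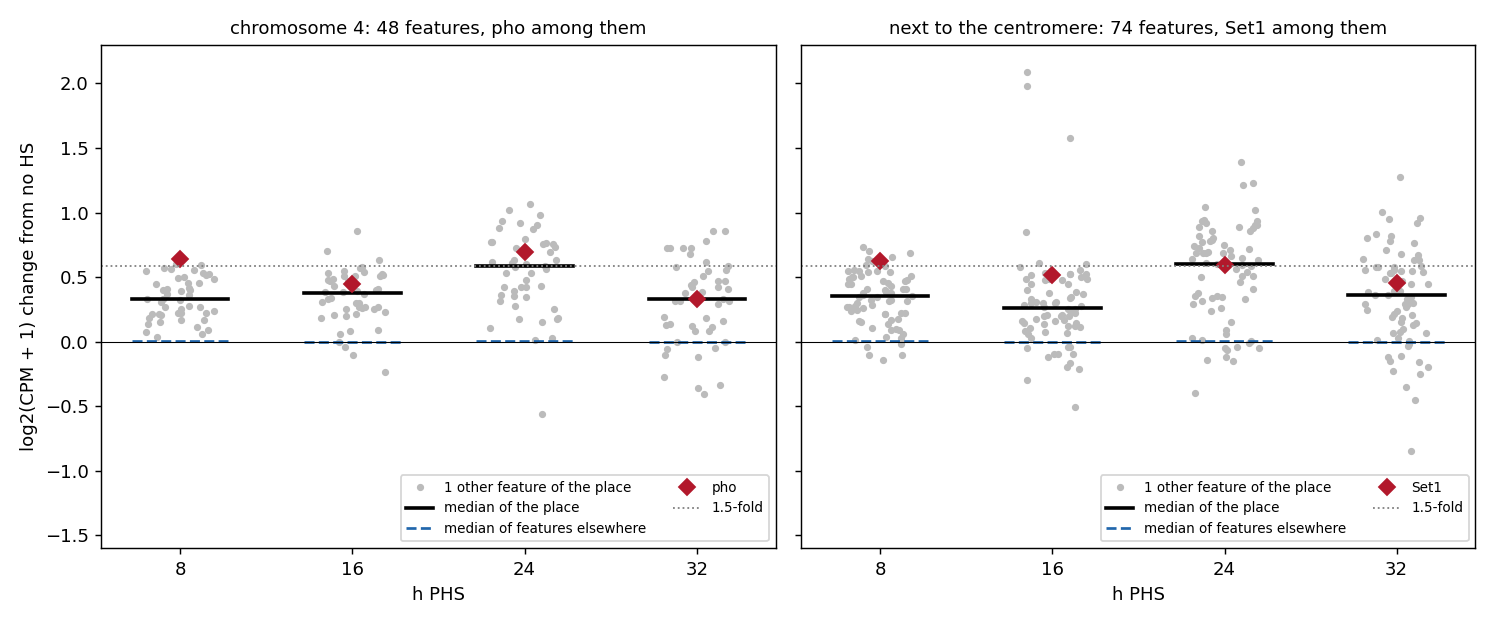
Change in log2(CPM + 1) from no HS of the features on chromosome 4 (left, 48) and next to the centromeres (right, 74) at 8, 16, 24 and 32 h PHS, each grey point 1 feature, with pho and Set1 as red diamonds. The medians of both places (black lines) lie between 0.26 and 0.60, above those of the 6473 features elsewhere (blue dashed lines, near 0), and pho and Set1 lie within the cloud of their neighbours except for pho at 8 h, which is the highest.

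The remaining repressors changed little or along lines of their own. Asx, the regulatory subunit of PR-DUB, was at 221, 210, 249, 230 and 203 CPM, and calypso, its deubiquitinase, at 59.4, 56.8, 54.7, 58.6 and 56.2 CPM. The highest calypso value was 1.09 times the lowest, the narrowest range of the 34 genes, and its interval included 0 at each time. l(3)mbt, an MBT-domain repressor known for keeping germline genes silent in the larval brain, was at 323, 294, 235, 221 and 246 CPM. It was below no HS at every time, already at 16 h (-0.46, interval -0.52 to -0.39), when it was the most negative of the 33 genes, and the change was -0.54 at 24 h and -0.39 at 32 h.

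Among the Trithorax genes 9 of 11 were above no HS at 16 h PHS and 4 of 11 at 24 h and at 32 h. Their summed level was 5347, 5159, 6232, 5412 and 5175 CPM, highest at 16 h. Over all features 49.5% were below no HS at 16 h. Of these 11, 10 were in the longest quartile of exonic length (3886 bp or more), as were 6 of 8 PRC1 and 4 of 8 PRC2 genes, whose class medians at 16 h were -0.07 and -0.05. In that quartile the median change at 16 h was 0.08 and 65.7% of 1649 genes were above no HS, against -0.06 and 36.7% in the shortest quartile. What part transcript length has in the 16 h value of the Trithorax genes was not tested.

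Of the methyltransferases, trx, the founding member, was at 289, 264, 320, 285 and 274 CPM, and trr, the enzyme of the enhancer-type COMPASS complex, at 159, 178, 182, 144 and 136 CPM. trr was above no HS at 8 and 16 h (0.16 and 0.20) and below it at 24 and 32 h (-0.14 and -0.22). Set1, the enzyme that places most of the promoter mark, was at 22.9 CPM in no HS and at 35.8, 33.2, 35.0 and 31.8 CPM at 8, 16, 24 and 32 h PHS. All 4 later libraries were above no HS, past 1.5-fold at 8 h (0.62, interval 0.44 to 0.86) and 24 h (0.59, interval 0.41 to 0.83), from 235 reads in no HS. Among the later libraries Set1 did not differ in that way, and the change of the 24 h level from that of 8 h was -0.029. The share of Set1 in the reads of trx, trr and Set1 was 4.86% in no HS (4.27 to 5.50%) and between 6.20 and 7.54% later.

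ash2, a subunit common to the COMPASS complexes, was at 86.9, 86.0, 85.2, 79.1 and 78.4 CPM, with a change of -0.15 at 32 h. Utx, the demethylase that removes the PRC2 mark within the trr complex, was at 42.9 CPM in no HS and at 54.0, 54.1, 58.3 and 58.5 CPM later. Every later library was above no HS, with a change of 0.44 at 32 h (interval 0.29 to 0.60). The no HS value rests on 441 reads. Against 8 h PHS the change of Utx at 32 h was 0.11 (interval 0.0093 to 0.22). Beside E(z), which writes the mark, Utx took 23.5, 27.7, 28.1, 32.4 and 34.5% of the reads of both in order of time, so that the share was higher in each library than in the one before. The interval was 33.0% or more in the last library and at most 25.5% in no HS. Those of 8 h (26.5 to 29.0%) and 16 h (26.7 to 29.5%) overlapped, as did those of 24 h (31.1 to 33.7%) and 32 h. This pairing was not planned, and its share restates the changes of Utx and E(z) already given. ash1, a methyltransferase that opposes PRC2, was at 117, 106, 121, 104 and 114 CPM, and its interval at 32 h included 0.

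The subunits of the Brahma complex differed among themselves. brm, the ATPase, was at 261, 292, 325, 277 and 285 CPM, above no HS at every time and most so at 16 h (0.31). mor, a scaffold subunit, was at 533, 504, 522, 483 and 418 CPM, and its change at 32 h (-0.35, interval -0.40 to -0.30) was the most negative of the Trithorax genes. osa, which defines the BAP form of the complex, was at 1523, 1317, 1672, 1512 and 1547 CPM. At 32 h PHS, then, mor was below no HS while brm (0.13) and osa (0.02) were not.

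kis, a chromodomain helicase linked to elongation, was at 1677, 1657, 2168, 1847 and 1641 CPM, highest at 16 h. Its change was 0.37 at 16 h and -0.03 at 32 h. fs(1)h, the fly BET bromodomain protein, was at 635, 666, 750, 587 and 589 CPM, with 0.24 at 16 h and -0.11 at 32 h. Per kilobase of exon in no HS, osa was at 142 CPM per kb, mor at 134 CPM per kb and kis at 87.2 CPM per kb, above every PRC1 gene, of which Sce was the most abundant at 59.5 CPM per kb.

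Further genes of the same pathways were read from fixed lists. Among 14 other Polycomb genes the median at 32 h against no HS was -0.34, and 4 were past 1.5-fold lower and 0 higher, beside the 6.62% and 3.27% of all features. The 4 were corto (-0.78), Dsp1 (-0.71), mxc (-0.70), which is also a histone locus protein, and HDAC1 (-0.61). Of 12 other COMPASS genes 11 were measured, with a median of -0.01, and wds (-0.80), a WD-repeat subunit shared with other complexes, was the 1 past 1.5-fold lower. Among 7 other subunits of the Brahma complexes the median was -0.14 with 1 lower, Snr1 (-0.85). Among 12 other Trithorax genes it was -0.09 with 1 lower, psq (-0.70). In none of the last 3 lists was a gene past 1.5-fold higher at 32 h.

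The classic Polycomb targets stayed low or near their starting levels. Of the 8 homeotic genes, lab, pb, Dfd, Scr, Antp and Ubx were under 1 CPM in every library. abd-A was at 50.7, 51.9, 62.5, 60.3 and 55.8 CPM and Abd-B at 13.2, 13.0, 17.4, 17.3 and 16.2 CPM, with changes at 32 h of 0.14 (interval -0.0094 to 0.29) and 0.27 (interval 0.0024 to 0.58). Of 7 other targets, hh was the 1 with a mean of at least 10 CPM, at 15.2, 17.2, 18.9, 19.4 and 18.0 CPM, and en and eve were under 1 CPM throughout.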

How the data were processed

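The 5 RNA-seq libraries, 1 per time, were made by the authors with a kit that does not mark strand. The authors trimmed reads with Trim Galore 0.4.3, aligned them with STAR 2.5.3 to BDGP6 (6.46), kept properly paired reads of mapping quality 10 or more with SAMtools 1.4.1, counted them with featureCounts of Subread 1.5.0 and scaled them by the TMM method of edgeR 3.34.0. As deposited, each value is the log2 of CPM + 1 after that scaling, whereas the plan assumed CPM. CPM was therefore recovered before the planned measures were computed, and 100% of nonzero values were whole reads within 0.1 read.

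Changes are differences of log2(CPM + 1), and 1.5-fold is 0.58 on that scale. Features under a mean of 10 CPM were left out of counts and medians. The exception is the count of genes by the library of their lowest or highest level, which was taken over all 34 genes, Trl included. Intervals are 95% Clopper-Pearson intervals and cover counting error only. A count of 0 allows up to 3 reads, which is 0.292 CPM in no HS and between 0.105 and 0.142 CPM later. Filtering on mapping quality removes most reads of near-identical copies. Every gene of the list is named, and of the other lists the measured genes past 1.5-fold at 32 h or, where these are more than 4, the 2 that changed most in each direction. The genes and the lists were chosen with earlier results of these data known. Only the paralog pairs were planned to be set side by side. The shares of esc beside E(z), Pc beside Sce, Utx beside E(z) and Set1 beside trx and trr were added outside the plan. Coordinates and exonic lengths come from Ensembl's BDGP6.54 annotation, where all 34 genes were found, calypso as caly. Centromere-proximal ends were set, after the data were seen, as the parts of 2L beyond 22 Mb, 3L and X beyond 23 Mb, 2R up to 5.6 Mb and 3R up to 4.2 Mb. Python 3.11.15, numpy 2.4.6, pandas 2.3.3 and scipy 1.17.1 were used, and the steps were tested on simulated data. The simulated data held counting noise only, and planted changes larger than that of any gene of the list. They therefore do not show how smaller changes or error between libraries are handled. Alternatives were the fold, the pseudocount, the scaling, the filter and the baseline.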

Additional observations from a re-analysis of the deposited data

How the results depend on the processing

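With 1 library per time, the limit on every value is the library itself: no replicate can be left out, and the counting intervals leave out all variation between animals. No paired analysis was possible because each time has 1 library. The class medians of PRC2, PR-DUB and others and Trithorax moved by less than the width of their counting interval under each alternative tried. Against 8 h, though, the PRC2 median at 24 h was -0.281, just outside its bounds against no HS (-0.470 to -0.286). That of PR-DUB and others at 24 h changed sign, from -0.019 to 0.045. Of the counts, the 2 genes past 1.5-fold higher at 8 h became 0 with a 2-fold threshold, 0 with a pseudocount of 5 CPM, 1 with upper quartile scaling and 0 against the mean of no HS and 8 h. The 2 higher at 24 h became 0 with a 2-fold threshold, with a pseudocount of 5 CPM, against 8 h and against that mean. The 1 lower at 24 h became 0 with a 2-fold threshold and 2 against 8 h. Without a filter on low values, which adds Trl, the recruiter medians were 0.20, 0.21, -0.067 and -0.32 at 8, 16, 24 and 32 h. Against 8 h PHS, the PRC1 median was 0.042 at 16 h and -0.086 at 24 h, and that of the recruiters 0.0012 at 24 h and -0.31 at 32 h. Against the mean of no HS and 8 h, the recruiters had -0.12 at 24 h and -0.12 at 32 h. Single genes also changed sign with 8 h PHS as the baseline. Set1 was at -0.029 at 24 h and -0.17 at 32 h, against 0.59 and 0.46 from no HS. For pho the 32 h change was -0.31, against 0.33 from no HS. Psc was at 0.32 at 24 h and 0.22 at 32 h, against -0.20 and -0.30 from no HS. Further genes turned as well, brm among them (-0.075 at 24 h and -0.032 at 32 h). Other scalings shifted a library by at most 0.05 on the log2 scale and turned the sign only of changes near 0, such as those of E(z) at 8 and 16 h and kis at 8 and 32 h. The call of esc at 32 h held under every alternative.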

Other observations

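Genes of chromosome 4 and of the centromere-proximal ends shared their higher values with genes outside the Polycomb and Trithorax list. sxc, which encodes the O-GlcNAc transferase and is also a Polycomb group gene, had changes from no HS of 0.38, 0.37, 0.69 and 0.19 at 8, 16, 24 and 32 h PHS. AGO3, a Piwi-family protein of the germ line, had 0.44, 0.29, 0.60 and 0.33, and vtd, the cohesin kleisin and a Trithorax group gene, had 0.44, 0.30, 0.71 and 0.36. All 3 lie next to a centromere, and all 3 were highest at 24 h PHS, as were the medians of both places. These places were singled out after the values had been seen, and the comparison with no HS rests on a single library.

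The genes with their lowest level in no HS were Pc, pho, Set1, Utx and brm, 5 of the 34, while 13 had their highest level there. Over all features of mean at least 10 CPM, 22.1% were lowest and 20.5% highest in no HS.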
